A study of Mus musculus with 6 samples.

Results

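The receptors for interleukin 6 (IL-6), IL-12, IL-23 and IL-27 are built from a small set of related chains, and 6 of their genes, Il6ra, Il6st, Il12rb1, Il12rb2, Il23r and Il27ra, were examined in mouse hybridoma RNA. Their probes were taken by gene symbol in the platform annotation, while the genes were listed with earlier results of these data known. The genes are 6 of 19057 named genes with a probe. The symbols were listed for 11 probes. The 6 Illumina arrays formed 2 groups of 3: the clone S2, labelled as producing IL-17, and the clone DE3, labelled as not producing it. A hybridoma is a fusion of a lymphocyte and a tumour cell that grows as a line. Both were kept in RPMI medium with fetal calf serum, and the labels name no stimulus, no genetic change, and neither the strain nor the fusion partner. Each group is 1 clone, so clone and IL-17 production cannot be told apart, and nothing says that the replicates came from separate cultures. The spread behind each p-value is that between these samples only and may be technical.

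As background, IL-6 is bound by the alpha chain IL-6R (Il6ra), which then recruits the signalling chain gp130 (Il6st). The IL-27 receptor pairs Il27ra (WSX-1) with the same gp130. IL-12Rβ1 (Il12rb1) is shared by the IL-12 receptor, where its partner is IL-12Rβ2 (Il12rb2), and by the IL-23 receptor, where its partner is IL-23R (Il23r). The signalling chains carry Janus kinases that activate STAT factors such as STAT3 and STAT4. In T cells, IL-6 starts, together with TGF-β, the type 17 programme, IL-23 sustains it, IL-12 drives the type 1 programme and IL-27 restrains the type 17 one.

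Transcripts of 4 of the 6 chains, Il6ra, Il6st, Il12rb1 and Il27ra, were above background on all 6 arrays. Those of Il12rb2 and Il23r were above background on none. Both chains of the IL-6 receptor and both of the IL-27 receptor were therefore measured, while for IL-12 and IL-23 the shared chain was measured and the partner was not. Between the hybridomas, Il12rb1 and Il6ra were modestly higher in the producing one, by 1.29-fold and 1.26-fold, each on 1 of its probes. Il6st and Il27ra did not pass the test. Neither call held with scaling by the median only, an alternative to the quantile normalization used.

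The producing arrays were dimmer before normalization, with a mean signal of 398.6 to 481.6 against 505.0 to 559.5, and had 36.9 to 37.4% of probes above background against 38.0 to 39.4%. With 3 arrays a group, that number sets the precision. A single chip (1 in all) held every array and each group took neighbouring positions on it, so a chip position effect and the group difference cannot be told apart. The labels say hybridoma and no more. Of 11 T cell markers with a probe, 8 were above background and were tested, Cd3e, Cd3g, Cd3d and Thy1 among them, while Cd8a, Cd2 and Cd5 were not detected on enough arrays. Of the T cell markers tested, 4 fell, 1 rose and 3 did not pass, beside 18.6% of all tested genes called lower and 18.1% called higher, and the summed level of the list ran from 46936.7 to 50186.0 in the non-producing and from 37386.9 to 39110.8 in the producing group. B cell markers were tested for 1 of 6 genes with a probe (summed level 64.7 to 81.7 against 99.7 to 107.0). Myeloid markers were tested for 1 of 8 (82.1 to 91.1 against 54.1 to 61.5) and NK markers for 0 of 4 (38.5 to 47.3 against 34.9 to 44.7). The sums also count genes that were not tested, so in these lists much of the sum may be background. The B cell marker tested, Vpreb1, a surrogate light chain gene, was higher in the producing group by 0.51 on the log2 scale (limma adjusted p = 0.0143). The myeloid one, the lysozyme gene Lyz1, was above background on 3 non-producing arrays and no producing array, and at least 1.43-fold lower there (limma adjusted p = 5.94e-05). Pax5, Ms4a1, Csf1r, Itgam and Ncr1 were among those not detected on enough arrays. The part of these lists in the results was not tested, and in bulk RNA fewer cells of a type and less RNA per cell cannot be told apart.

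**Figure D1:**
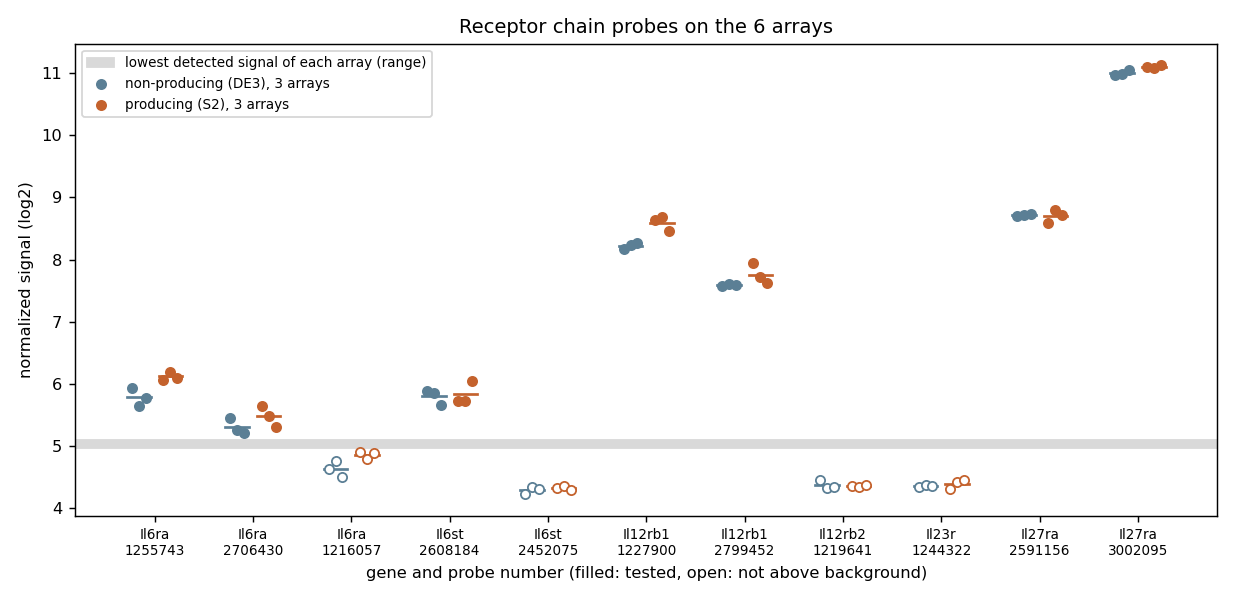
Normalized signal on the log2 scale (vertical axis) of the 11 probes of the receptor chain genes (horizontal axis) on the 3 arrays of each hybridoma, with the group mean as a line. The 7 filled probes were above background on all 6 arrays; the 4 open ones, with both Il12rb2 and Il23r among them, lay below the grey band of 4.97 to 5.10 that marks each array's lowest detected signal.

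Il6ra encodes the chain that gives a cell its specificity for IL-6. Its brightest probe, ILMN_1255743, read 5.94, 5.65 and 5.77 on the normalized log2 scale on the non-producing arrays 1 to 3 and 6.07, 6.20 and 6.10 on the producing arrays. The lowest producing array lay above the highest non-producing one, so the groups did not overlap. Means were 5.79 ± 0.15 and 6.12 ± 0.07 (SD, n = 3), and the log2 difference, producing minus non-producing, was 0.33 (standard error 0.10), with a 95% interval of 0.12 to 0.55 (limma, Benjamini-Hochberg adjusted p = 0.0274). In the deposited signals before normalization this probe averaged 106.2 and 107.4, with overlapping arrays.

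The second Il6ra probe, ILMN_2706430, read 5.46, 5.26 and 5.21 against 5.64, 5.49 and 5.31. Here the groups overlapped, and the log2 difference of 0.17 had a 95% interval of -0.08 to 0.42 (limma adjusted p = 0.273). The third probe, ILMN_1216057, was above background on no array, with detection p-values of 0.101 to 0.398, and read 4.64 ± 0.13 against 4.86 ± 0.06 (SD, n = 3). It was not tested. Before normalization the second probe averaged 88.1 in the non-producing and 86.1 in the producing group. After normalization both tested probes had the higher mean in the producing hybridoma, and 1 of them passed. The direction of the third, which was not detected, carries no weight. The call lay close to the threshold. It was lost without non-producing array 2 (adjusted p = 0.0911) or 3 (0.0783), without producing array 2 (0.0810) or 3 (0.0540), and when both tested probes were averaged (log2 difference 0.25, adjusted p = 0.0542). Without background correction the log2 difference was 0.19 and just passed (adjusted p = 0.0460).

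Il6st encodes gp130, the signalling chain that serves IL-6, IL-27 and several related cytokines. Its probe ILMN_2608184 read 5.89, 5.85 and 5.66 on the non-producing and 5.72, 5.73 and 6.05 on the producing arrays. The groups overlapped, with producing array 3 the highest of all. The log2 difference was 0.03 with a 95% interval of -0.23 to 0.29, or 0.854-fold to 1.22-fold (limma adjusted p = 0.859). Its sign turned without producing array 3 (-0.08) or non-producing array 3 (-0.04). Before normalization this probe averaged 106.5 in the non-producing and 96.3 in the producing group. The other Il6st probe, ILMN_2452075, was above background on no array, with detection p-values of 0.795 to 1.0.

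Il12rb1 encodes the chain shared by the IL-12 and IL-23 receptors. Its brighter probe, ILMN_1227900, read 8.17, 8.23 and 8.27 on the non-producing arrays and 8.63, 8.68 and 8.46 on the producing arrays. All producing arrays lay above all non-producing ones. Means were 8.22 ± 0.05 and 8.59 ± 0.12 (SD, n = 3), which differ by 0.36 on the log2 scale (standard error 0.09), with a 95% interval of 0.17 to 0.56 (limma adjusted p = 0.0128). The call held when any 1 array was left out, with adjusted p-values of 0.0100 to 0.0431. The second probe, ILMN_2799452, read 7.57, 7.60 and 7.59 against 7.94, 7.72 and 7.62. These groups did not overlap either, but producing array 3 lay only just above the non-producing arrays. The log2 difference of 0.18 had a 95% interval of -0.04 to 0.40 and did not pass (limma adjusted p = 0.195). In the signals before normalization the brighter probe averaged 379.8 and 386.4 and the second 260.0 and 237.4.

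Il27ra encodes the chain that makes the IL-27 receptor with gp130. Its brighter probe, ILMN_3002095, read 10.97, 10.99 and 11.05 on the non-producing and 11.10, 11.08 and 11.12 on the producing arrays. The groups did not overlap, yet the gap was small. The log2 difference of 0.10 had a 95% interval of -0.07 to 0.26, or 0.954-fold to 1.20-fold (limma adjusted p = 0.340). The other probe, ILMN_2591156, read 8.70, 8.71 and 8.73 against 8.59, 8.79 and 8.72, with overlapping groups. Its log2 difference was -0.01 with a 95% interval of -0.20 to 0.17 (limma adjusted p = 0.909). Before normalization the brighter probe averaged 2319.7 in the non-producing and 1997.7 in the producing group, and the other 514.9 and 411.4.

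Il12rb2 encodes the chain that completes the IL-12 receptor, and Il23r the one that completes the IL-23 receptor. Each has 1 probe. The Il12rb2 probe, ILMN_1219641, read 4.45, 4.33 and 4.34 against 4.36, 4.34 and 4.37, with detection p-values of 0.516 to 0.912. The Il23r probe, ILMN_1244322, read 4.34, 4.37 and 4.36 against 4.31, 4.42 and 4.46, with detection p-values of 0.529 to 0.950. Both genes stayed below the lowest detected signal on every array, so no fold is given and a low level of either transcript was not detectable with these probes. On chromosome 6 of the GRCm38.p6 assembly the 2 genes lie 46.6 kb apart.

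Calls were common over all genes, so the number of calls among the receptor chains is no result about them. Of the 4 chains tested, 2 passed, both higher, beside 36.7% of all 9395 genes tested (18.1% higher and 18.6% lower). By probe, 2 of 7 passed, beside 33.9% of 17445 probes. The groups did not overlap for the brightest probe of 3 of the 4 chains, beside 51.3% of all genes. The median log2 difference was 0.22 over the 4 chains and 0.00 over all genes. A larger absolute difference than that of Il12rb1 was seen in 28.0% of tested genes, and than that of Il6ra in 31.1%. The median size among called genes was 0.47. Where a called gene had more than 1 tested probe, a further one passed the same way in 57.0% of cases, which neither Il6ra nor Il12rb1 had.

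**Figure D2:**
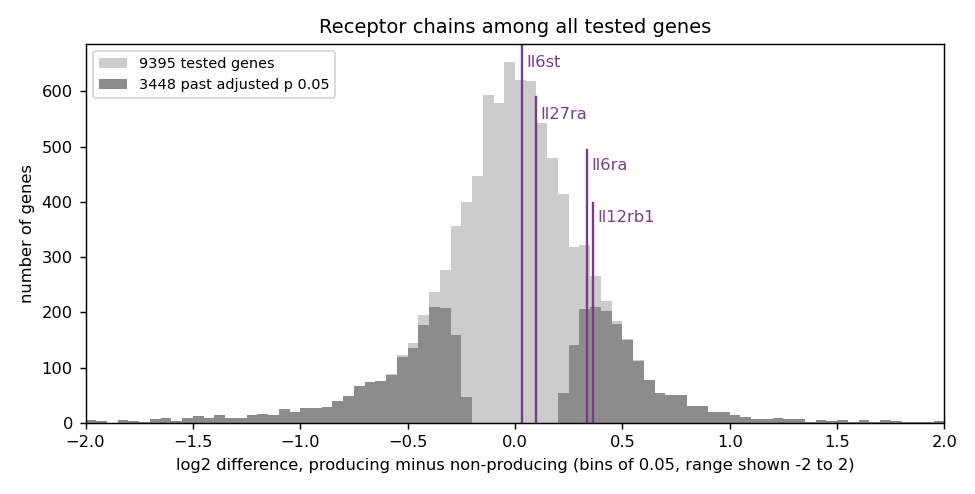
Number of genes (vertical axis) by log2 difference, producing minus non-producing (horizontal axis), for the 9395 tested genes in light grey and the 3448 past the threshold in dark grey, with the 4 tested receptor chains as vertical lines. Il6st (0.03) and Il27ra (0.10) lie in the centre, and Il6ra (0.33) and Il12rb1 (0.36) lie at the inner edge of the called genes.

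The balance of higher and lower calls over all genes, and which genes passed, depended on the scaling of the arrays. Quantile normalization, the main setting, set the median difference of all genes at 0.00, and 49.4% of the called genes were higher. When arrays were scaled to a common median over all probes instead, the median of all tested genes shifted to -0.23, and 12.5% of called genes were higher. With 36.9 to 39.4% of probes above background on an array, the median over all probes is that of a probe not detected. Under that scaling Il12rb1 was at 0.08 (limma adjusted p = 0.673) and Il6ra at 0.12 (0.512), Il27ra was at -0.16 (0.318) and Il6st at -0.17 (0.334), and 0 of the 4 passed by limma, also at an unadjusted p of 0.05. Relative to the shifted median the 4 chains were at 0.31, 0.35, 0.07 and 0.07. Taking out the shifted median removes the shift itself, so these values are no second test of the main result. Against 0, the signs of Il27ra and Il6st turned. In a fit added after the data were seen, which takes out each chromosome's median, Il6ra, on chromosome 3 with a median of -0.189, was at 0.52 (adjusted p = 0.00471), and Il12rb1, on chromosome 8 with a median of -0.013, at 0.38.

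**Figure D3:**
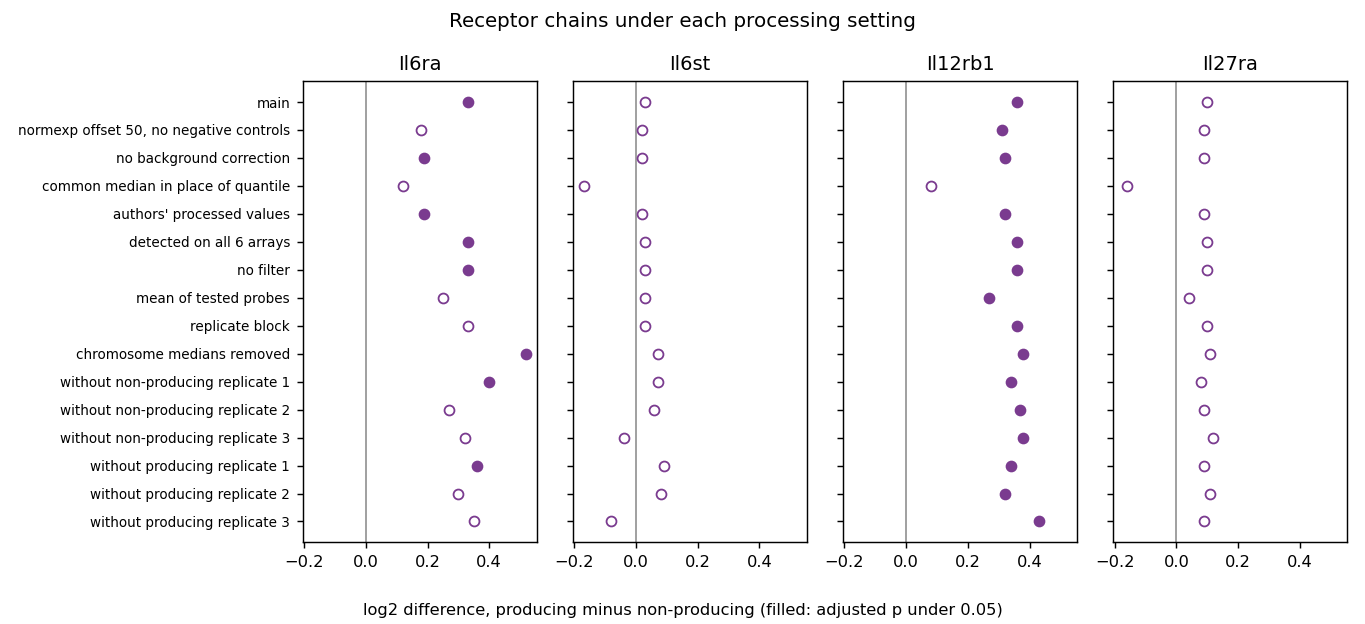
Log2 difference, producing minus non-producing (horizontal axis), of the 4 tested receptor chains under the main setting and each alternative (vertical axis), filled where the adjusted p was under 0.05. Il12rb1 is filled in all settings but scaling to a common median (0.08), Il6ra is open in 8 of the 15 alternatives, and Il6st and Il27ra are open throughout.

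The genes whose profile over the 6 arrays lay closest to that of Il6ra were Trim25, a ubiquitin ligase, and Pdcd5. Their root mean square distances, on log2 values centred on each gene's mean, were 0.029 and 0.032, against a median of 0.24 over all tested genes. Closest to Il12rb1 were Nepro, at 0.034, and Zfp524, a zinc finger gene, at 0.039. This is a description over 6 arrays in 2 groups, where any gene with a like difference and little spread comes close.

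Promoter windows from RefSeq, on the GRCm38.p6 assembly, were matched for 4 of the 6 chains, and none for the measured chains Il12rb1 and Il27ra. Each window is given as running from 250 bases before to 50 bases after a start. They are shown because the measured chains Il6ra and Il6st and the unmeasured chains Il12rb2 and Il23r differ in CpG content, and each CG dinucleotide is in capitals. Il6ra lies at chr3:89913147-89913446 on the minus strand, Il6st at chr13:112463820-112464119 on the plus strand, Il12rb2 at chr6:67376139-67376438 on the minus strand and Il23r at chr6:67491806-67492105 on the minus strand. The gene table used for chromosomes puts the start of Il12rb2 at 67376293, further inside its window than 50 bases. The Il12rb2 sequence and counts therefore belong to the window as printed and not to 250 bases before that start.
Il6ra: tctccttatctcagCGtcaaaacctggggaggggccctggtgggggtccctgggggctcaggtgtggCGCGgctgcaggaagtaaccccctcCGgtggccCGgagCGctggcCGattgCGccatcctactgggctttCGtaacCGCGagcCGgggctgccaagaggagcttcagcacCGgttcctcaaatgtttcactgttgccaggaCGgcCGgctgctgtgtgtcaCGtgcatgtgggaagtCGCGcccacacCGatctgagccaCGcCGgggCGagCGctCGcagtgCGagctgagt
Il6st: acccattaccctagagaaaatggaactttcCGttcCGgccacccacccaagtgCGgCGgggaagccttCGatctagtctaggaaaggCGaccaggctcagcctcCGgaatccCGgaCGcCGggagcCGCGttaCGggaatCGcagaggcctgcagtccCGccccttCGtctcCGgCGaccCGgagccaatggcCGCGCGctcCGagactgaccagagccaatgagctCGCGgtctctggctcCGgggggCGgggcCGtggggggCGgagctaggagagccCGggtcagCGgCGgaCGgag
Il12rb2: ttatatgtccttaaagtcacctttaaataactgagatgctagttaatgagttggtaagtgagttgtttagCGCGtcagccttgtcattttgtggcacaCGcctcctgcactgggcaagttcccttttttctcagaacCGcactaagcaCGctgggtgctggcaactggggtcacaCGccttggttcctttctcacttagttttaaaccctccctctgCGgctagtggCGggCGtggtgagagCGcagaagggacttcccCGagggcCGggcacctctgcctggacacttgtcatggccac
Il23r: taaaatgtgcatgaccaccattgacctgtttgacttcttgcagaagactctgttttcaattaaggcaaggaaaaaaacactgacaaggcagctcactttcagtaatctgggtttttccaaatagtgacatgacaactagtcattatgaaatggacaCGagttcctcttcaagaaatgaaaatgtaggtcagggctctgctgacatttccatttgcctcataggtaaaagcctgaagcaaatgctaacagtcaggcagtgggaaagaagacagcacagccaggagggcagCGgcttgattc

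The window held 25 CG dinucleotides for Il6ra and 33 for Il6st, with a G+C content of 66.0% and 68.3%. It held 12 for Il12rb2 and 2 for Il23r, at 53.0% and 43.0%. Of all 32851 windows in the table, 18.4% held at least as many as Il6ra, 8.6% as Il6st, 39.6% as Il12rb2 and 85.9% as Il23r. The same split is seen across genes in general: the median was 21 CG dinucleotides for 7675 genes with a tested probe and 6 for 7562 genes whose probes were not tested, with quartiles of 13 to 29 and 2 to 18. The letters TTCNNNGAA, the core bound by STAT factors, which read the same on both strands, occurred once in the Il12rb2 window and in none of the other 3, beside 8.3% of all windows that hold them. A match in the letters is a description and not a site.

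Most ligands of these receptors were not detected. Of 11 ligand genes with a probe, 9 were not above background on enough arrays to be tested, among them Il6 (lowest detection p 0.156), Il12a (0.292), Il23a (0.0899) and Il27 (0.186). Il12b, which encodes the p40 subunit of IL-12 and IL-23, was not named in the probe annotation used. Ebi3, which encodes a subunit of IL-27, was above background on all arrays and read 5.42 against 5.41, a log2 difference of -0.01 (limma adjusted p = 0.964). Osm, which encodes oncostatin M, a ligand that signals through gp130, read 8.73, 8.53 and 8.59 against 9.07, 9.04 and 9.05. All producing arrays were higher, by 0.44 on the log2 scale (standard error 0.08, limma adjusted p = 0.00409), and its other probe gave 0.44 without passing. Of 8 related receptor chains with a probe, 6 were not detected, Lifr, Csf3r and Lepr among them. Osmr, the oncostatin M receptor chain (-0.09), and Crlf3 (0.09) did not pass.

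Among the kinases and STAT factors that the chains use, 3 of 11 tested genes rose, 8 did not pass and 0 fell; the list's median was 0.13. Over all tested genes 36.7% were called, 18.1% higher and 18.6% lower. Counting both directions, the 3 calls of 11 were thus no larger a share than the 36.7% over all genes. All 3 were higher, and their share was not tested against the 18.1%. Jak2, a kinase of gp130 and of IL-12Rβ2, read 8.71, 8.81 and 8.80 against 9.44, 9.32 and 9.38. The groups lay well apart, 0.61 on the log2 scale (standard error 0.08, limma adjusted p = 0.000694), and its other probe also passed, at 0.46. Jak2 lies on chromosome 19, whose genes had a median of 0.309, and with chromosome medians removed it was at 0.30 (adjusted p = 0.0221). Stat3, the factor downstream of IL-6 and IL-23, read 10.40, 10.42 and 10.47 against 10.76, 10.64 and 10.82. It rose by 0.31 (limma adjusted p = 0.0193), and its other probes, at 0.41 and 0.42, passed as well. The brightest Stat3 probe missed the threshold once producing array 1 or 3 or non-producing array 2 was left out (adjusted p = 0.0589, 0.0613 and 0.0552). Stat4, the factor downstream of IL-12, rose by 0.33 (limma adjusted p = 0.0329), with its other probe at 0.20 and not past. Stat4 missed the threshold once array 1 or 3 of the non-producing group (0.0826 and 0.0763) or of the producing group (0.0830 and 0.0919) was left out, and without the filter on dim probes (0.0607). Jak1, a kinase of gp130, was at 0.26 (adjusted p = 0.162), with 1 of its 3 probes past at 0.67, and passed as the mean of its probes (0.41, adjusted p = 0.0246). Tyk2, a kinase of IL-12Rβ1, was at -0.29 (limma adjusted p = 0.0881), with its other probes at -0.01 and -0.15 and not past. As the mean of its probes Tyk2 was at -0.15 (limma adjusted p = 0.234). It passed under 4 alternatives, at values from -0.57 to -0.27.

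Among the 42 tested pathway genes, the inhibitor genes Socs2 and Socs3 had the largest absolute differences. Of 11 inhibitors and shedding proteases tested, 3 fell, 1 rose and the other 7 were not past the threshold; the list's median was -0.17. The 4 calls of 11 are near the 36.7% called over all genes. Socs3, which binds gp130 and blocks its signal, read 7.11, 7.13 and 6.97 on the non-producing and 5.74, 5.81 and 5.62 on the producing arrays. Every producing array was lower, and Socs3 fell by 1.35 on the log2 scale with a standard error of 0.09 (limma adjusted p = 1.96e-05). Socs2, an inhibitor of growth hormone and STAT5 signalling, read 6.99, 6.86 and 6.71 against 5.26, 5.68 and 5.47. It fell by 1.38 with a standard error of 0.12 (limma adjusted p = 0.000113). Cish, an inhibitor induced by STAT5, was at -0.67 (limma adjusted p = 0.0237) and was above background on 3 non-producing arrays and 1 producing array. It missed the threshold once array 1 or 3 of either group was left out (adjusted p 0.0540 to 0.0734) or the filter on dim probes was dropped (0.0805). Ptpn1, a phosphatase that acts on JAK2 and TYK2, rose by 0.43 (limma adjusted p = 0.0138). Adam17, a protease that sheds the IL-6 receptor, was at 0.10 and did not pass. The size of the lower values depended on the background correction: without it, Socs3 was at -0.87, Socs2 at -0.84 and Cish at -0.35, and all 3 still passed.

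Of 17 tested genes known as targets of these receptors in T cells, 2 were higher, 3 lower and 12 not past, at a median of 0.06 and beside the 36.7% called over all genes. Irf4, a transcription factor needed for type 17 differentiation, read 7.64, 7.76 and 7.68 against 6.75, 6.70 and 6.53, at -1.03 on the log2 scale (standard error 0.09, limma adjusted p = 9.02e-05). Bcl3, an IκB family member induced through STAT3, was above background on all 3 non-producing arrays and on no producing array, which puts it at least 1.29-fold lower there (limma adjusted p = 0.000941, means 5.45 and 4.86), with a log2 difference of -0.29 without background correction. Socs3 is itself such a target and is the third that fell. Irf1, an interferon regulatory factor, rose by 0.44 (limma adjusted p = 0.00369, 3 of 5 probes past), and Mcl1, a survival gene of the Bcl2 family, by 0.39 (0.00494). Not detected on enough arrays were 12 targets. Among them, Il17a, Il17f, Il21, Il22, Ifng and Tbx21 were above background on no array of either hybridoma. Il17a, with detection p-values of 0.155 to 0.416, was thus not detected in the clone labelled as producing IL-17 either. Over all 42 tested pathway genes, 7 rose, 5 fell and 30 did not pass. Calls were thus no more frequent among them than the 36.7% over all genes. Scaling to a common median, which put the median of all genes at -0.23, called 13 pathway genes, 0 higher and 13 lower, of which 5 were called in the main setting and 8, Tyk2 among them, were not. The 7 that rose in the main setting were not called there. Relative to the shifted median, Jak2 was at 0.55, Irf1 at 0.42, Osm and Ptpn1 at 0.38, Mcl1 at 0.37, Stat4 at 0.29 and Stat3 at 0.27. Taking out that median removes the shift itself, so these values are no second test.

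**Figure D4:**
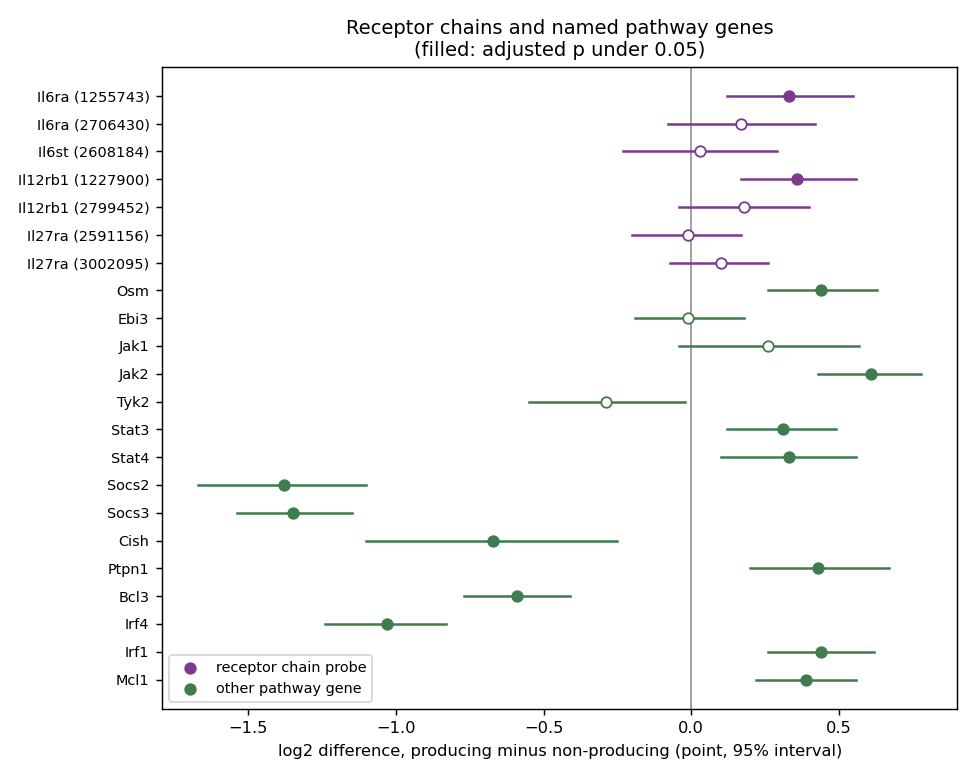
Log2 difference, producing minus non-producing (horizontal axis), with its 95% interval for the 7 tested receptor chain probes and for the named ligands, kinases, STAT factors, inhibitors and targets (vertical axis), filled where the adjusted p was under 0.05. The receptor chain probes lie between -0.01 and 0.36, whereas Socs2 (-1.38), Socs3 (-1.35) and Irf4 (-1.03) lie furthest from 0.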

How the data were processed

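RNA of 6 hybridoma samples was measured on Illumina bead arrays of 45281 probes. The authors deposited, per the file headers, an average signal intensity per probe and array without normalization and on a linear scale, and beside it a detection fraction between 0 and 1. That deposited fraction rises with signal, and its complement was taken as the detection p-value. The authors' processed table holds intensity on a linear scale, quantile normalized as judged from its values, with a median of 66.7 in each column. The sources used here give neither scanner software nor background settings.

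The signals were processed with limma 3.58.1 in R 4.3.3: neqc, its offset at 16 and its negative controls taken from the detection p-values, corrected background, quantile normalized and gave log2 values. Tested were probes with a detection p under 0.05 on at least 3 of 6 arrays (17445 probes, 9395 genes). The model (lmFit, eBayes) had the group and no covariates, tests were two-sided, and p-values were adjusted by Benjamini-Hochberg over all tested probes at 0.05. The brightest tested probe, by mean signal, stands for a gene. A fold written as at least sets the mean of the detected group against that of the other group, with each array of the latter put at its lowest detected signal where it read less. The summed level of a marker list adds the background-corrected signal of each gene's brightest probe, tested or not.

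One symbol was listed for 34885 probes, several for 18, and 10378 were not listed. Names were updated, and chromosomes taken, from a gene table of GRCm38.p6. The text names the 6 members with every probe, up to 4 called genes of the largest difference in each pathway list, the direct ligands, kinases and STAT factors of these receptors, and the 2 nearest profiles of each called member; other list genes were named after their values were seen. The members, the 5 pathway lists, the 4 marker lists and the tests were chosen with earlier results of these data known. Same-numbered arrays of the groups were checked for pairing by the correlation of their deviations from the group means, which was -0.04, -0.16 and 0.09, so the numbers did not pair the arrays. Alternatives changed the background correction, normalization, starting values, filter, probe rule, arrays and block, and removed chromosome medians.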

Additional observations from a re-analysis of the deposited data

How the results depend on the processing

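The count of all genes past the threshold stayed within 2536 to 3878 over the 15 alternatives, and that of pathway genes within 9 to 15, against 3448 and 12. Scaling to a common median moved the median of all genes to -0.23 and put Il12rb1 at 0.08, Il6ra at 0.12, Il27ra at -0.16 and Il6st at -0.17, with 0 receptor chains past the threshold (limma; also 0 at an unadjusted p of 0.05); the cause was not tested. Il6ra also missed the threshold with normexp at an offset of 50 (0.18, limma adjusted p = 0.0502) and with tested probes averaged (0.25). The same held with the replicate number as a block (0.33, limma adjusted p = 0.0589). Each of these left 1 receptor chain called. The block, whose pairing was neither seen nor excluded, took the genes called to 3019 and ended the call of Stat4 (limma adjusted p = 0.0619). Leaving out the background correction, or raising its offset, shrank these differences: Socs3 went from -1.35 to between -0.87 and -0.82, and Bcl3 from -0.59 to between -0.29 and -0.26. Leaving out 1 array gave 1 to 2 receptor chains called, 2536 to 2912 genes, and differences of 0.27 to 0.40 for Il6ra, -0.08 to 0.09 for Il6st, 0.32 to 0.43 for Il12rb1 and 0.08 to 0.12 for Il27ra. It turned the sign of Ebi3, which ranged from -0.04 to 0.03, and removing chromosome medians turned that of Jak1 (-0.01). Il12rb1 kept its call and direction under 14 of 15 alternatives and Il6ra under 7 of 15. Signal over background limits Il6ra and Il6st, whose probes read close to the lowest detected signal, and leaves Il12rb2 and Il23r unmeasured.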

Other observations

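Other pathway genes gave values that stand in no comparison above. With chromosome medians removed, Ebi3, on chromosome 17 whose genes had a median of 0.304, was at -0.31 and passed (limma adjusted p = 0.0206), while with its chromosome left in it was at -0.01. Jak1, on chromosome 4 with a median of 0.275, was at -0.01 in that fit. On each array, the log2 signal of the brighter Il12rb1 probe minus that of the other probe was 0.60, 0.63 and 0.68 in the non-producing and 0.69, 0.96 and 0.84 in the producing hybridoma. These values did not overlap between the groups, but only just, at 0.68 against 0.69. How many probe pairs over all genes do the same was not computed, so this is no result about Il12rb1. For Il6ra the same quantity was 0.48, 0.40 and 0.56 against 0.43, 0.72 and 0.79, with overlap.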
